A study of Mus musculus with 15 samples.

Results

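The lysosomal genes described here number 47 and encode the working parts of the organelle: 10 cathepsins and other peptidases, 11 glycosidases, 5 sulfatases, 7 lipid hydrolases and carriers, 7 membrane proteins and 7 subunits of the proton pump. They were taken as a list of names by function, with earlier results of these data known. Each gene was read from the probe set that the array's annotation assigns to it alone, and from the one with the highest mean over the 15 arrays where several did. Such a probe set was found for 46 of the 47 genes; Cd63, a tetraspanin of the lysosomal membrane, is not analysed here. All 46 passed the filter on low values, which asked that 3 or more arrays read the gene above their own 40th percentile, and they are 46 of the 13703 genes tested out of 18193 with a probe set of their own.

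Lysosomes are the acidic compartments in which macrophages break down what they engulf. Soluble hydrolases reach them by way of a mannose 6-phosphate tag and its receptors, membrane proteins such as LAMP1 shield the boundary and carry products out, and the V-ATPase, a rotary pump with a soluble V1 sector and a membrane-bound V0 sector, uses ATP to bring in the protons that the hydrolases need. Many of these genes carry a short palindrome called the CLEAR element in their promoters, to which the transcription factors TFEB, TFE3 and MITF bind.

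The cells were mouse bone marrow macrophages, grown for 7 days with the macrophage growth factor M-CSF, and every group had 3 samples, each on 1 array. M1 cells had been given LPS and interferon-gamma. M2 cells had been given IL-4 and IL-13, and further M2 cells also received nutlin-3a, which blocks the binding of p53 by MDM2, or 10058F4, an inhibitor of the MYC and MAX dimer, whereas M0 cells received no polarizing agent. The strain and age of the mice, the doses, the times of treatment and the vehicle were not given in the sources used here, and the labels name the samples biological replicates without tying them to separate mice or cultures, so a p-value here reflects the spread between these samples alone, and that spread may be technical.

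All values are log2 expression after RMA, the normalization applied by the authors, so that a difference of 1 is a 2-fold change; with 3 arrays per group, the number of arrays limits the precision. A member is called higher or lower where its adjusted p in limma's linear model was under 0.05. Arrays of a group correlated with r of 0.989 to 0.997 across probe sets, and the median SD of the members was 0.107 in M1, 0.0513 with nutlin-3a, 0.0431 with 10058F4, 0.0572 in M2 and 0.0493 in M0. Of 10 macrophage markers, 9 had a probe set. All 9 lay above the filter's level, which was 4.34 to 4.52 depending on the array, in every group. The log2 of their summed level was 15.59 to 15.63 in M1 and 15.79 to 15.84 in M0. These markers include Cd68, which is also a lysosomal member. RNA integrity was read as the level of the 3' probe set of beta-actin minus that of its 5' probe set, which was 0.178 ± 0.0444 in M1, 0.453 ± 0.0346 with nutlin-3a, 0.489 ± 0.025 with 10058F4, 0.382 ± 0.0302 in M2 and 0.351 ± 0.0543 in M0 (SD, n = 3 each). This difference did not overlap between M1 and M0, nor between either agent and M2, where the exact two-sided permutation p was 0.1, the smallest that 3 arrays against 3 allow. The same difference for Gapdh went the other way in M1, at -0.162 ± 0.0347 in M1 and -0.273 ± 0.015 in M0 (exact two-sided permutation p = 0.1, SD, n = 3 each). For Gapdh it was -0.281 ± 0.0136 with nutlin-3a, -0.272 ± 0.00988 with 10058F4 and -0.283 ± 0.0321 in M2 (SD, n = 3 each), with exact permutation p of 1 and 0.6 for the agents against M2. The part of these differences in the results was not tested. In bulk RNA of this kind, fewer cells of a type and less RNA per cell cannot be told apart.

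The lysosomal genes were abundant transcripts. The mean level of 33 of the 46 lay above 90% of all probe sets, and that of 16 lay above 99%. Whether probe sets this bright understate differences was not tested. Only Galc, which encodes the galactosylceramidase that degrades myelin lipids, fell below the filter's level on any array of a group, and it did so in M1. Arrays of the M1 group stood apart from all others in the map of levels, where M1 held the lowest group mean for 39 of the 46 members and M0 the highest for 28.

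**Figure D1:**
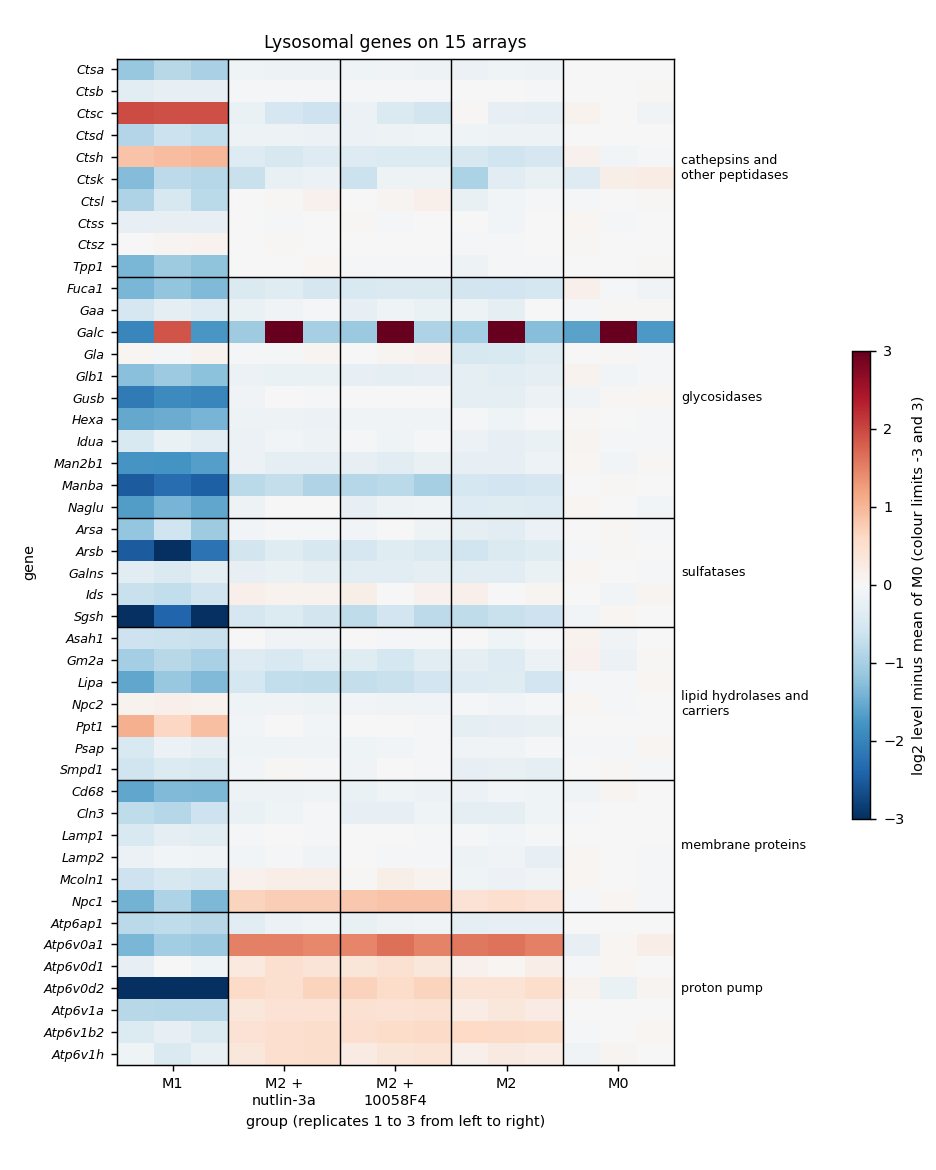
Colour shows the log2 level of each of 46 lysosomal genes (rows, by class) on each of 15 arrays (columns, by group) minus the gene's mean in M0, with colours limited to -3 and 3. The M1 columns are blue for most genes, most proton pump rows are red in M2 cells with and without the agents, and the Galc row changes with replicate number.

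The promoter letters of these genes were read from RefSeq, build GRCm38.p6, from 250 bases before to 50 bases after the annotated start of transcription, for the 39 members that the table holds. The core of the CLEAR element was searched on both strands as TCACGTGA, which contains the E-box core CACGTG. It was present in 7 of the 39 promoters, or 17.9%, namely those of Atp6v0d1, Atp6v1a, Cln3, Ctsa, Ctsd, Gla and Mcoln1, against 1.12% of all 27025 genes in the table, and in none of the sulfatase or lipid hydrolase promoters searched. The E-box core was present in 14 of 39, or 35.9%, against 8.09% of all genes. TTCNNNGAA, the letters recognised by STAT factors that act after interferon-gamma, IL-4 and related cytokines, was present in 4 of 39, or 10.3%, against 9.55% of all genes. A match describes these letters and shows no binding.

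The promoters below carry the CLEAR core, in capitals, and are written 5′ to 3′ on the gene's strand. Those of Atp6v0d1 (minus strand, chr8:105566015-105566314), Atp6v1a (minus strand, chr16:44139210-44139509), Cln3 (minus strand, chr7:126583187-126583486) and Ctsa (plus strand, chr2:164833523-164833822) are the first 4 in alphabetical order. Those of Gla (minus strand, chrX:134600956-134601255) and Mcoln1 (plus strand, chr8:3500269-3500568) were chosen after their values were seen, because both genes were higher with both agents. Counted from the start of transcription, the core begins at base -4 in Atp6v0d1 and at base -46 in Mcoln1, and both Ctsa and Gla hold it at 2 places.
Atp6v0d1: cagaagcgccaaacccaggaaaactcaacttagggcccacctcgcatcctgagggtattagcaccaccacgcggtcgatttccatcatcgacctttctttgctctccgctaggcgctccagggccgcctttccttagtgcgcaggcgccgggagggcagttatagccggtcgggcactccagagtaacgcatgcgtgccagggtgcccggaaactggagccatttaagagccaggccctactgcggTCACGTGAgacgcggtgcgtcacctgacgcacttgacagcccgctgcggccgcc
Atp6v1a: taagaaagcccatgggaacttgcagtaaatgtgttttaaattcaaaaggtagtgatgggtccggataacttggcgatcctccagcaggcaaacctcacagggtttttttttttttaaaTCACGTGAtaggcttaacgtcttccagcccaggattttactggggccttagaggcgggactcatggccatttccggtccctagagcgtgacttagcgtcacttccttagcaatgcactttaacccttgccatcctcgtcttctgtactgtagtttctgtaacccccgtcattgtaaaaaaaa
Cln3: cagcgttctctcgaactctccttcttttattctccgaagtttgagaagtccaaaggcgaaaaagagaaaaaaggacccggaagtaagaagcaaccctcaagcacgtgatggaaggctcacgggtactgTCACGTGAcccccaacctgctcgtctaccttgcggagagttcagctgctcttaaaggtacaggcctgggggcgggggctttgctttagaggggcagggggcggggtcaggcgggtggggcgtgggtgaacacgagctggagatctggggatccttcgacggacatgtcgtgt
Ctsa: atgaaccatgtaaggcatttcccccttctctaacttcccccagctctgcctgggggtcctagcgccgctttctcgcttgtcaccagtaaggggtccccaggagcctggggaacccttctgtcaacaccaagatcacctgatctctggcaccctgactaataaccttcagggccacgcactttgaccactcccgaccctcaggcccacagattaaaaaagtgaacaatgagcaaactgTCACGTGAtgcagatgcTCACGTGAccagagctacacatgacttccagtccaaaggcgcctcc
Gla: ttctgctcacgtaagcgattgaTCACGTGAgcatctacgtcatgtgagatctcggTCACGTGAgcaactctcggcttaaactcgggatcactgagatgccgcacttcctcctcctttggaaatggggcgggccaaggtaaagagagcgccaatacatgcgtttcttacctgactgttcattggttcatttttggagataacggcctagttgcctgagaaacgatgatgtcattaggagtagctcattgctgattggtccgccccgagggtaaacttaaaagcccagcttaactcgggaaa
Mcoln1: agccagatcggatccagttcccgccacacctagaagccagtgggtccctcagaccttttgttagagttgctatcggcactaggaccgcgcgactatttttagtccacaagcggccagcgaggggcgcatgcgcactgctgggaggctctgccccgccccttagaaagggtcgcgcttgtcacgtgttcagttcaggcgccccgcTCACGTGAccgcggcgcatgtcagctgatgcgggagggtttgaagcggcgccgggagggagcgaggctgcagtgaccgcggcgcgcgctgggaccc

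Among the cathepsins and other peptidases, M1 cells had lower levels of most enzymes and higher levels of cathepsins C and H. Cathepsin C, or dipeptidyl peptidase 1, which activates granule serine proteases, was higher in M1 by 1.94 ± 0.12 (SE) against M0, or 3.84-fold, and cathepsin H, an aminopeptidase, by 0.92 ± 0.07, or 1.90-fold. In M2 cells cathepsin H was lower than in M0, and with a block for the replicate number cathepsin K was as well (-0.50, adjusted p = 5.4e-05).

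Ctsc read 13.53, 13.50 and 13.52 on the M1 arrays, 11.61, 11.32 and 11.31 on the M2 arrays and 11.68, 11.58 and 11.46 on the M0 arrays. All 3 M1 arrays were thus above every other array, while M2 and M0 overlapped; the adjusted p was 2.9e-09 for M1 against M0 and 0.351 for M2 against M0. With the mean of all probe sets, Ctsc was called lower in M2 than in M0 (-0.54, adjusted p = 0.00544). Ctsh read 13.10, 13.16 and 13.23 in M1, 11.77, 11.65 and 11.74 in M2 and 12.37, 12.17 and 12.18 in M0. The 3 groups did not overlap and ran in the order M1, M0 and M2, with an M2 minus M0 difference of -0.52 ± 0.07 (adjusted p = 4.6e-05) and an M1 minus M2 difference of 1.44 ± 0.07 (adjusted p = 1.4e-10).

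Tpp1, the tripeptidyl peptidase lost in a childhood neurodegeneration, read 10.27, 10.57 and 10.44 in M1, 11.50, 11.60 and 11.62 in M2 and 11.62, 11.63 and 11.68 in M0. It had the largest fall of the class in M1, -1.22 ± 0.07 against M0 (adjusted p = 1.4e-09), and M1 did not overlap with the other groups. Ctsz, a carboxypeptidase, had the narrowest range of group means in the class. It read 13.45, 13.55 and 13.58 in M1, 13.42, 13.41 and 13.46 in M2 and 13.49, 13.46 and 13.44 in M0, and the groups overlapped in all 3 comparisons. M1 minus M0 for Ctsz was called with the mean of all probe sets (0.15, adjusted p = 0.0124) and under centring on the median of tested genes (0.39, adjusted p = 2.1e-05).

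Of the 10 peptidases, 2 were higher and 7 lower in M1 than in M0, beside 33.6% and 39.1% of all tested genes, with a median difference of -0.51. The 7 lower ones were Tpp1, Ctsk, Ctsa, Ctsd, Ctsl, Ctsb and Ctss. The endopeptidases Ctsd and Ctsl, which do much of the bulk proteolysis in lysosomes, had differences of -0.75 and -0.74, against -0.27 for Ctsb and -0.25 for Ctss, the cathepsin that trims the invariant chain of MHC class II. The small differences of Ctsb and Ctss turned to 0.05 and 0.08 when every array was centred on the median of its tested genes. The Ctsl call in M1 was lost with probe sets without a suffix (-1.25, adjusted p = 0.113). Against M2, 2 were higher and 6 lower in M1, beside 28.1% and 36.5% of all tested genes, with a median of -0.37. Against M0, none was higher and 1 lower in M2, beside 12.7% and 18.4%, with 4 of 10 at an unadjusted p under 0.05. With the mean of all probe sets, Ctsb was also called lower in M2 than in M0 (-0.26, adjusted p = 0.00238).

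The glycosidases, which take sugars off glycoproteins, glycolipids and glycosaminoglycans, were the class with the lowest median in M1, -1.29 against M0. Of 11 tested, 9 were lower and none higher in M1 than in M0, beside 39.1% and 33.6% of all tested genes. Of the 9, 7 were lower by at least 2-fold, against 1737 of the 13703 tested genes. M2 cells were lower than M0 for 8 of the 11, with a median of -0.25, and higher for none. In that comparison 18.4% of all tested genes were lower and 12.7% higher.

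Manba, beta-mannosidase, read 6.70, 6.90 and 6.75 in M1, 8.68, 8.63 and 8.69 in M2 and 9.18, 9.24 and 9.18 in M0. It fell by 2.41 ± 0.07 in M1 (adjusted p = 2.0e-12) and fell by 0.53 ± 0.07 in M2 (adjusted p = 8.0e-05), both against M0, and no groups overlapped. Gusb, beta-glucuronidase, read 10.13, 10.33 and 10.30 in M1, 11.96, 11.96 and 12.07 in M2 and 12.15, 12.28 and 12.31 in M0. The M1 arrays lay far below M0 (-1.99 ± 0.07, adjusted p = 6.3e-12), and M2 lay -0.25 ± 0.07 below it (adjusted p = 0.0124, but 0.0505 without M0 replicate 3).

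Man2b1, the lysosomal alpha-mannosidase, read 10.39, 10.35 and 10.51 in M1, 11.91, 11.90 and 12.00 in M2 and 12.20, 12.08 and 12.18 in M0. It fell by 1.73 ± 0.07 in M1 against M0 (adjusted p = 1.5e-11) and fell by 0.21 ± 0.07 in M2 against M0 (adjusted p = 0.0218). The M2 call was lost without M0 replicate 1 (adjusted p = 0.0771) or 3 (0.063) and without M2 replicate 1 (0.0733) or 2 (0.0725). It was also lost with probe sets without a suffix (-0.15, adjusted p = 0.167). Idua, the iduronidase of heparan and dermatan sulfate, had the narrowest range of the class. It read 8.05, 8.33 and 8.18 in M1, 8.33, 8.28 and 8.32 in M2 and 8.61, 8.47 and 8.48 in M0. M0 was above both other groups, with M1 minus M0 at -0.33 ± 0.07 (adjusted p = 0.000916). That call was lost with quantile normalization repeated (-0.12, adjusted p = 0.128) and with arrays centred on the median of tested genes (-0.004, adjusted p = 0.954). M2 minus M0 was -0.21 ± 0.07 (adjusted p = 0.0414), a call lost with a block for the replicate number (adjusted p = 0.0506) and without any 1 of the 6 arrays (adjusted p of 0.0573 to 0.153).

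Gla, alpha-galactosidase A, which clears globotriaosylceramide, went its own way within the class. It read 10.58, 10.48 and 10.65 in M1, 10.05, 10.07 and 10.16 in M2 and 10.54, 10.56 and 10.48 in M0. M1 and M0 overlapped, at a difference of 0.04 ± 0.06, although M1 was called higher with the mean of all probe sets (0.22, adjusted p = 0.00102) and under centring on the median of tested genes (0.36, adjusted p = 0.000284). M2 was below both, with a difference of -0.43 ± 0.06 against M0 (adjusted p = 0.000135). Gla was therefore also the sole glycosidase higher in M1 than in M2 (0.47 ± 0.06, adjusted p = 1.3e-05), against 8 that were lower. Among all tested genes, 28.1% were higher and 36.5% lower in M1 than in M2. The remaining falls in M1 against M0 were -1.54 for Naglu and -1.48 for Hexa, which act on heparan sulfate and on GM2 ganglioside, -1.29 for Fuca1, -1.19 for Glb1 and -0.39 for Gaa, and Hexa and Gaa were not called in M2 against M0. The Gaa call in M1 was lost under centring on the median of tested genes (-0.06, adjusted p = 0.425).

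The sulfatases, which take sulfate off glycosaminoglycans and sulfatide, were all lower in M1 than in M0. All 5 were called, beside 39.1% lower among all tested genes, with a median of -0.95 and the largest falls of any hydrolases on the list. In M2, 2 of the 5 were called lower than in M0 and none higher, beside 18.4% and 12.7% of all tested genes.

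Sgsh, the N-sulfoglucosamine sulfohydrolase of heparan sulfate breakdown, read 5.43, 6.06 and 5.21 in M1, 7.68, 7.76 and 7.80 in M2 and 8.36, 8.49 and 8.46 in M0. The 3 groups did not overlap, and the difference from M0 was -2.87 ± 0.15 in M1 (7.32-fold, adjusted p = 6.1e-10) and -0.69 ± 0.15 in M2 (adjusted p = 0.00354). Arsb, arylsulfatase B, read 7.99, 6.65 and 8.28 in M1, 9.90, 10.07 and 10.12 in M2 and 10.46, 10.52 and 10.49 in M0. All M1 arrays were lower than the rest, with replicate 2 the lowest, and M1 minus M0 was -2.85 ± 0.28 (adjusted p = 4.3e-07), whereas M2 minus M0 was -0.46 ± 0.28 (adjusted p = 0.231). The M2 and M0 arrays of Arsb did not overlap, and the difference was called with the 6 arrays alone (adjusted p = 0.00267) and with array weights (adjusted p = 0.0231).

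Arsa, arylsulfatase A, which acts on sulfatide, read 7.55, 8.12 and 7.64 in M1, 8.45, 8.39 and 8.55 in M2 and 8.73, 8.75 and 8.67 in M0. M1 was below both other groups, with a difference of -0.95 ± 0.11 against M0 (adjusted p = 3.2e-06). Galns, the sulfatase of keratan sulfate, varied least. It read 8.53, 8.45 and 8.59 in M1, 8.55, 8.56 and 8.68 in M2 and 8.94, 8.87 and 8.82 in M0. M1 and M2 overlapped, and both were lower than M0, with a difference of -0.35 ± 0.06 (adjusted p = 0.000148) in M1 and -0.28 ± 0.06 (adjusted p = 0.00328) in M2. The M1 call was lost under centring on the median of tested genes (-0.03, adjusted p = 0.727). Ids, iduronate sulfatase, was lower in M1 at -0.67 ± 0.07 by the brightest probe set, but its probe sets were called in opposite directions, and with their mean the call was lost (-0.05, adjusted p = 0.519).

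Lipid hydrolases and carriers were lower in M1 than in M0 for 5 of 7 and higher for 1, beside 39.1% and 33.6% of all tested genes. Ppt1 was higher, at 0.86 ± 0.09, and Npc2 was not called, at 0.12 ± 0.05. The median of the class was -0.49. Lipa, the acid lipase that frees cholesterol from its esters, fell most. M2 cells were lower than M0 for 4 of the 7 and higher for none, beside 18.4% and 12.7% of all tested genes.

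Lipa read 11.36, 11.80 and 11.60 in M1, 12.54, 12.56 and 12.34 in M2 and 12.90, 12.90 and 12.98 in M0. The groups did not overlap and ran upward in the order M1, M2 and M0, with differences from M0 of -1.34 ± 0.10 in M1 (adjusted p = 3.0e-08) and -0.44 ± 0.10 in M2 (adjusted p = 0.00458). Ppt1, the palmitoyl thioesterase that takes fatty acids off proteins, read 10.42, 9.97 and 10.27 in M1, 9.07, 9.11 and 9.14 in M2 and 9.35, 9.37 and 9.34 in M0. M1 was above M0 (adjusted p = 6.7e-07) and M2 below it, with a difference of -0.25 ± 0.09 (adjusted p = 0.0456). The replicate block took the adjusted p of M2 against M0 to 0.0526, and the loss of any 1 of the 6 arrays to 0.074 to 0.128. That call was also lost with the mean of all probe sets (-0.11, adjusted p = 0.253).

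Gm2a, the activator protein that presents GM2 ganglioside to hexosaminidase A, read 10.52, 10.71 and 10.57 in M1, 11.24, 11.14 and 11.35 in M2 and 11.67, 11.36 and 11.57 in M0. The groups did not overlap, with M1 minus M0 at -0.93 ± 0.09 (adjusted p = 3.9e-07) by the brightest probe set, but the probe sets of Gm2a were called in opposite directions in this comparison. M2 minus M0 was -0.29 ± 0.09 (adjusted p = 0.0261), a call lost without M0 replicate 1 (0.116) or 3 (0.0719) and without M2 replicate 1 (0.0675) or 2 (0.104). That call was also lost with the mean of all probe sets (-0.19, adjusted p = 0.0537). Npc2, the soluble cholesterol carrier, read 13.46, 13.53 and 13.47 in M1, 13.31, 13.28 and 13.34 in M2 and 13.42, 13.32 and 13.36 in M0. Its M1 arrays were the highest, by 0.12 ± 0.05 over M0 (adjusted p = 0.0502) and by 0.18 ± 0.05 over M2 (adjusted p = 0.00804). Npc2 was called higher than in M0 with the mean of all probe sets (0.15, adjusted p = 0.0348), with probe sets without a suffix (0.28, adjusted p = 0.000453) and under centring on the median of tested genes (0.45, adjusted p = 5.8e-06).

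The remaining members were lower in M1 than in M0, with differences of -0.65 for Asah1, the acid ceramidase, -0.49 for Smpd1, the acid sphingomyelinase, and -0.30 for Psap, the precursor of the saposins. Smpd1 was also lower in M2 than in M0, with a difference of -0.25 ± 0.07 (adjusted p = 0.00878). The Psap difference turned to 0.02 when arrays were centred on the median of their tested genes.

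The membrane proteins were lower in M1 than in M0 for 5 of 6, with a median of -0.65, and none was higher. Among all tested genes 39.1% were lower and 33.6% higher. In M2, Npc1 was higher than in M0 while Cln3 and Lamp2 were lower, beside 12.7% higher and 18.4% lower among all tested genes. Npc1, which passes cholesterol out through the lysosomal membrane, read 8.78, 9.27 and 8.84 in M1, 10.63, 10.70 and 10.64 in M2 and 10.17, 10.26 and 10.17 in M0. Its groups did not overlap and ran in the order M1, M0 and M2, with M1 minus M0 at -1.24 ± 0.10 (adjusted p = 4.9e-08) and M2 minus M0 at 0.46 ± 0.10 (adjusted p = 0.00276).

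Cd68, a scavenger receptor family member and a common macrophage marker, read 11.52, 11.77 and 11.74 in M1, 12.92, 12.99 and 12.95 in M2 and 12.99, 13.17 and 13.09 in M0. M1 lay below the other groups, with a difference of -1.41 ± 0.07 against M0 (adjusted p = 3.8e-10), and M2 and M0 overlapped. Cln3, a membrane protein lost in juvenile Batten disease, read 8.08, 7.97 and 8.23 in M1, 8.54, 8.56 and 8.71 in M2 and 8.80, 8.85 and 8.85 in M0. M1 was the lowest (-0.74 ± 0.08 against M0, adjusted p = 6.8e-07), and M2 lay between at -0.23 ± 0.08 (adjusted p = 0.0334), a call lost without any 1 of 5 arrays (all but M2 replicate 3), at adjusted p of 0.0555 to 0.119.

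Lamp2, an abundant glycoprotein of the lysosomal membrane that takes part in chaperone-mediated autophagy, read 12.53, 12.62 and 12.59 in M1, 12.56, 12.60 and 12.46 in M2 and 12.76, 12.69 and 12.66 in M0. M0 was above both other groups, which overlapped. The differences were -0.12 ± 0.06 for M1 (adjusted p = 0.0625, and a difference of 0.20 when arrays were centred on the median of tested genes) and -0.16 ± 0.06 for M2 (adjusted p = 0.0403, and 0.0509 to 0.152 without any 1 of 5 arrays, all but M2 replicate 2). The centred M1 difference of Lamp2 was itself called (adjusted p = 0.00735). With the mean of all probe sets, Lamp2 was called higher in M1 than in M2 (0.43, adjusted p = 1.5e-05). By that mean it was also higher than in M2 with nutlin-3a (0.21, adjusted p = 0.0278) and with 10058F4 (0.23, adjusted p = 0.013). Lamp1 fell by 0.36 and Mcoln1, the calcium channel also called TRPML1, fell by 0.55 in M1 against M0. Neither was called in M2. With probe sets without a suffix the Mcoln1 call in M1 was lost (-0.22, adjusted p = 0.0993). The Lamp1 call in M1 was lost under centring on the median of tested genes (-0.03, adjusted p = 0.617).

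The 7 proton pump subunits on the list were mostly lower in M1 and mostly higher in M2 than in M0. Of the 7 subunits, 6 were lower in M1 than in M0 and none higher, with a median of -0.80, while in M2 the count was 4 higher and 1 lower, with a median of 0.28. Of 11 other pump subunits, 1 was higher and 1 lower in M2 than in M0, with a median of -0.02. Among all tested genes, 39.1% were lower and 33.6% higher in M1 than in M0, and 18.4% lower and 12.7% higher in M2 than in M0. The difference between the 7 and the other genes was not tested.

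Atp6v0d2, a d subunit of the V0 sector that is best known from osteoclasts, had the widest range of all 46 members. It read 8.21, 7.84 and 8.19 in M1, 12.44, 12.44 and 12.57 in M2 and 12.14, 11.84 and 12.12 in M0. The M1 arrays lay far below all others, at -3.95 ± 0.10 against M0, or 15.5-fold lower (adjusted p = 4.5e-13), and -4.40 ± 0.10 against M2, or 21.2-fold lower (adjusted p = 1.3e-13). M2 was above M0 by 0.45 ± 0.10 (adjusted p = 0.00407). Of 8 osteoclast markers tested, 2 were higher and 3 lower in M1 than in M0, beside 33.6% and 39.1% of all tested genes. In M2, 1 was higher and 2 lower than in M0, beside 12.7% and 18.4%. The log2 of the summed level of the 9 listed was 9.62 to 9.76 in M1, 9.96 to 10.18 in M2 and 10.05 to 10.14 in M0. Of these 9, 8 lay above the filter's level on all 3 arrays in M1 and with nutlin-3a, and 7 did in each other group. Calcr, the calcitonin receptor, stayed below that level in every group.

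Atp6v0a1, the a1 subunit through which protons pass, read 6.60, 6.95 and 6.87 in M1, 9.56, 9.62 and 9.51 in M2 and 7.73, 8.05 and 8.18 in M0. The 3 groups were well apart, with M2 minus M0 at 1.58 ± 0.11, or 2.99-fold (adjusted p = 1.1e-07), and M1 minus M0 at -1.18 ± 0.11 (adjusted p = 2.3e-07). The direction in M1 rests on the brightest probe set, since the gene's probe sets were called in opposite directions in M1 against M0 and in M1 against M2. Atp6v1a, the catalytic A subunit of the V1 sector, read 11.44, 11.43 and 11.42 in M1, 12.51, 12.62 and 12.53 in M2 and 12.26, 12.28 and 12.28 in M0. It fell by 0.84 ± 0.05 in M1 (adjusted p = 4.4e-09) and rose by 0.28 ± 0.05 in M2 (adjusted p = 0.00141), both against M0, with no overlap.

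Atp6v0d1, the widely expressed d subunit, varied least of the 7. It read 10.94, 11.20 and 11.05 in M1, 11.31, 11.25 and 11.38 in M2 and 11.13, 11.25 and 11.17 in M0. M1 and M0 overlapped, at -0.12 ± 0.07 (adjusted p = 0.164), and M2 minus M0 was 0.13 ± 0.07 (adjusted p = 0.224). Under centring on the median of tested genes, both were called higher than M0. These differences were 0.21 in M1 (adjusted p = 0.00651) and 0.21 in M2 (adjusted p = 0.0164). Thus the 2 d subunits on the list differed in M1: Atp6v0d2 fell by 3.95 on the log2 scale and Atp6v0d1 was not called, a difference between genes that was not itself tested. Among the others, Atp6v1b2 was lower in M1 (-0.36) and higher in M2 (0.58 ± 0.06, adjusted p = 8.0e-06). Its probe sets were called in opposite directions in M1 against M0, and the M1 call was lost with the mean of all probe sets (-0.14, adjusted p = 0.0528) and under centring on the median of tested genes (-0.03, adjusted p = 0.614). Atp6ap1, an accessory subunit, was lower in both, with differences of -0.80 in M1 and -0.26 in M2. Atp6v1h was lower in M1, with a difference of -0.26 ± 0.08 (adjusted p = 0.0118, but 0.0509 without M0 replicate 2 and 0.0517 without M1 replicate 2) and was not called in M2. The M1 difference of Atp6v1h turned to 0.06 under centring on the median of tested genes, and its call was lost with the 6 arrays alone (adjusted p = 0.0557). In M2, Atp6v1h was called higher than in M0 under that centring (0.30, adjusted p = 0.0214) and with quantile normalization repeated (0.27, adjusted p = 0.0258).

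**Figure D2:**
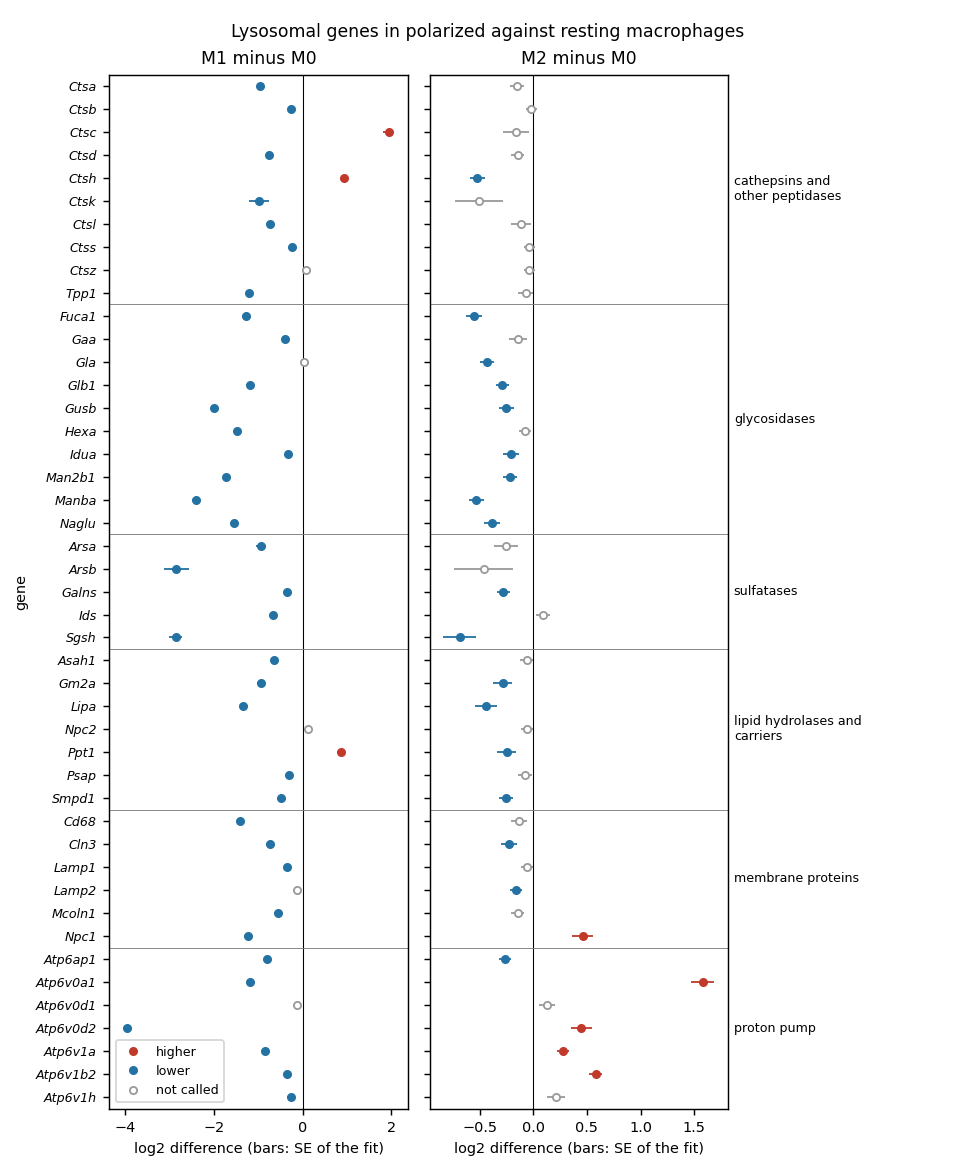
Points are log2 differences of M1 minus M0 (left) and M2 minus M0 (right) for 45 lysosomal genes by class, with bars for the SE of the fit, filled where called and open where not; the horizontal scales differ, both panels share the M0 arrays, and Galc is left out for its spread within groups. In M1 the filled points reach from -3.95 (Atp6v0d2) to 1.94 (Ctsc), and in M2 from -0.69 (Sgsh) to 1.58 (Atp6v0a1).

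Over all classes, 37 of the 46 members were lower and 3 higher in M1 than in M0, where 39.1% of all tested genes were lower and 33.6% higher. The median difference was -0.74 for the members and -0.005 for all tested genes, and 15 members were lower by at least 2-fold, against 1737 of the 13703 genes. When every array was centred on the median of its tested genes, a scaling chosen after seeing the data, the median of all tested genes moved to 0.32, the split of the members became 8 higher and 28 lower, and their median was -0.42. In M2 against M0, 18 members were lower and 5 higher, beside 18.4% and 12.7% of all tested genes, and the medians were -0.15 and -0.004. That split became 11 lower and 7 higher under the same centring, and 11 lower without M0 replicate 3. The 7 members whose M2 call was lost under the centring were Cln3, Gm2a, Gusb, Idua, Lamp2, Man2b1 and Ppt1. With quantile normalization repeated, the M2 calls of Cln3, Gm2a, Idua, Lamp2 and Ppt1 were lost as well (adjusted p of 0.0576 to 0.171). Without the filter on low values, those of Idua, Lamp2 and Ppt1 were lost (adjusted p of 0.0601 to 0.0676). In M1 against M2, 35 were lower and 5 higher, beside 36.5% and 28.1% of all tested genes, with medians of -0.61 and -0.005. Of 5 dendritic cell markers tested, 3 were higher and none lower in M1 than in M0, beside 33.6% and 39.1% of all tested genes. The log2 of the summed level of that list was 7.80 to 8.27 in M1 and 7.10 to 7.26 in M0. Its median level was 5.43 in M1 and 4.35 in M0, beside a filter's level of 4.34 to 4.52. Other lineages also had markers higher in M1: 2 of 2 for T and NK cells, 2 of 3 for B cells and 4 of 7 for neutrophils, where 1 was lower. The median levels of these lists in M1 were near the filter's level, at 4.38, 4.72 and 4.64. Their highest genes in M1 were Cd3e at 5.49, Pax5 at 5.44 and S100a8 at 8.36. The 1 mast cell and basophil marker tested was not called. Of 5 stromal markers 1 was higher and none lower. Of the 9 macrophage markers 4 were higher and 3 lower, and the lower ones include Cd68, which is itself a lysosomal member. The part of these markers in the results was not tested. The comparisons share arrays in pairs, so their counts are not independent of each other.

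The 5 members higher in M1 than in M2 were Ctsc, Ctsh, Ppt1, Gla and Npc2, and the 5 higher in M2 than in M0 were Atp6v0a1, Atp6v1b2, Npc1, Atp6v0d2 and Atp6v1a. The median of a class on every array, relative to the mean of M0, gives the same picture without a test. For the glycosidases it was -1.55 to -1.18 in M1, -0.29 to -0.28 in M2 and -0.04 to 0.04 in M0. For the proton pump it was -0.83 to -0.77 in M1, 0.23 to 0.35 in M2 and -0.03 to 0.02 in M0.

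**Figure D3:**
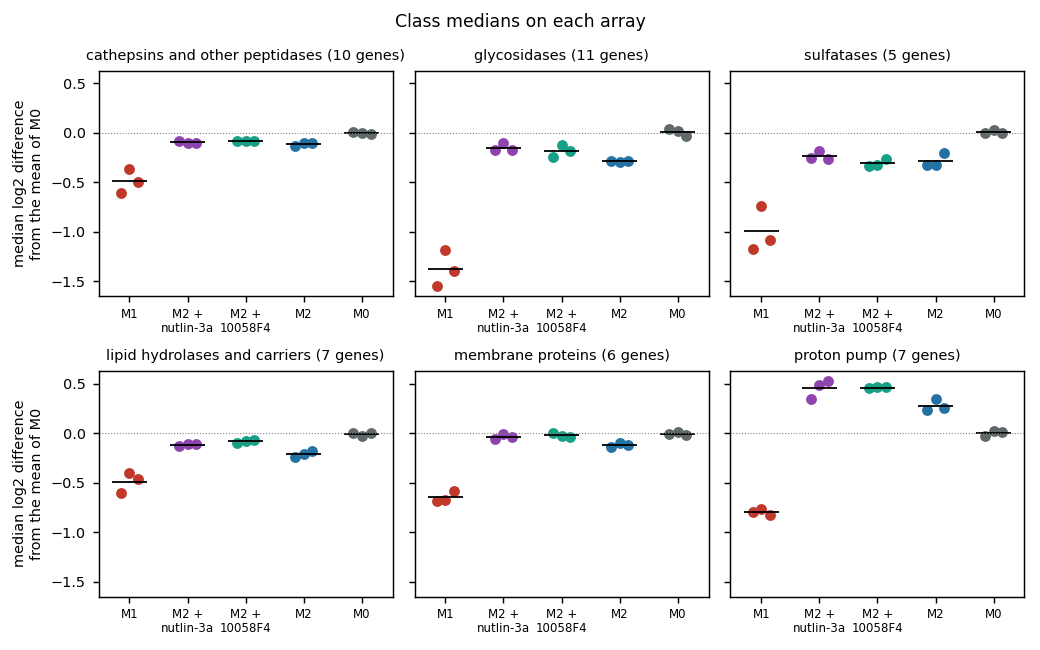
Each point is 1 array's median, over the genes of a class, of the log2 difference from the gene's mean in M0, with bars for the mean of the 3 arrays. M1 arrays are the lowest in all 6 classes, and the proton pump is the class whose arrays lie above 0 in M2 and with both agents.

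Nutlin-3a and 10058F4 moved few lysosomal genes of M2 cells, and by less than 1.5-fold. With nutlin-3a, 5 of the 46 members were higher than in M2 and 1 lower, beside 9.56% and 5.85% of all tested genes, and the median was 0.06 for the members and 0.01 for all genes. With 10058F4, 7 were higher and 1 lower, beside 10.6% and 10.2%, with medians of 0.03 and -0.0004. Neither share of higher members is far from that of all genes. Both comparisons use the same 3 M2 arrays, so the members called with both agents are given side by side and not counted as a repeat.

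Gla read 10.49, 10.50 and 10.60 with nutlin-3a, 10.54, 10.61 and 10.65 with 10058F4, 10.05, 10.07 and 10.16 in M2 and 10.54, 10.56 and 10.48 in M0. It was higher than in M2 on all 6 arrays, by 0.43 ± 0.06 with nutlin-3a (1.35-fold, adjusted p = 0.000448) and 0.50 ± 0.06 with 10058F4 (1.42-fold, adjusted p = 6.4e-05), and lay within or above the range of M0. Mcoln1 read 8.88, 8.95 and 8.95 with nutlin-3a, 8.79, 8.94 and 8.86 with 10058F4, 8.62, 8.57 and 8.65 in M2 and 8.81, 8.75 and 8.71 in M0. Neither agent overlapped with M2, at 0.31 ± 0.06 for nutlin-3a (adjusted p = 0.0035) and 0.25 ± 0.06 for 10058F4 (adjusted p = 0.00913, and 0.0503 without 10058F4 replicate 2).

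Atp6v0d1 read 11.48, 11.66 and 11.58 with nutlin-3a, 11.55, 11.65 and 11.53 with 10058F4, 11.31, 11.25 and 11.38 in M2 and 11.13, 11.25 and 11.17 in M0. It was above M2 by 0.26 ± 0.07 with nutlin-3a (adjusted p = 0.0311) and by 0.27 ± 0.07 with 10058F4 (adjusted p = 0.0214). The first call was lost without M2 replicate 1 or 2 or nutlin-3a replicate 2 or 3 (adjusted p of 0.0773 to 0.127), and the second without M2 replicate 1 or 2 or 10058F4 replicate 2 (0.061 to 0.0891).

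Smpd1 read 8.72, 8.82 and 8.76 with nutlin-3a, 8.69, 8.81 and 8.73 with 10058F4, 8.55, 8.58 and 8.49 in M2 and 8.79, 8.82 and 8.76 in M0. Both agents lay above M2 without overlap, by 0.23 ± 0.07 (adjusted p = 0.0301) and 0.20 ± 0.07 (adjusted p = 0.0387) for nutlin-3a and 10058F4. These calls were lost without any 1 of the arrays except nutlin-3a replicate 1, at adjusted p of 0.0507 to 0.116 for nutlin-3a and 0.0543 to 0.151 for 10058F4. Manba was the member lower with both agents and read 8.39, 8.49 and 8.31 with nutlin-3a, 8.35, 8.40 and 8.20 with 10058F4, 8.68, 8.63 and 8.69 in M2 and 9.18, 9.24 and 9.18 in M0. Both agents were below M2, which was below M0, at -0.27 ± 0.07 for nutlin-3a (adjusted p = 0.0233, and 0.0637 to 0.0905 without M2 replicate 1 or 3 or nutlin-3a replicate 1 or 3) and -0.35 ± 0.07 for 10058F4 (adjusted p = 0.00338), both against M2.

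The other calls were made with 1 agent. Naglu, higher with nutlin-3a by 0.34 ± 0.08 (adjusted p = 0.00856), had a difference of 0.20 ± 0.08 with 10058F4 (adjusted p = 0.0737). Npc1 was higher with 10058F4 by 0.38 ± 0.10 (adjusted p = 0.0134), against 0.25 ± 0.10 with nutlin-3a (adjusted p = 0.107). Gusb was higher with 10058F4 by 0.24 ± 0.07 (adjusted p = 0.0229, and 0.0575 to 0.0799 without any 1 of 5 arrays, all but M2 replicate 3), against 0.20 ± 0.07 with nutlin-3a (adjusted p = 0.0688, and 0.0336 with the replicate block). Atp6v1a was higher with 10058F4 by 0.18 ± 0.05 (adjusted p = 0.0321, and 0.0754 to 0.119 without any 1 of 5 arrays, all but M2 replicate 2), against 0.13 ± 0.05 with nutlin-3a (adjusted p = 0.135). The pattern of 1 agent depends on the setting for all 4, since each was called with both agents under at least 1 alternative: Naglu with 10058F4 and Npc1 with nutlin-3a with array weights (adjusted p = 0.0142 and 0.00799), Gusb with nutlin-3a with array weights (adjusted p = 0.0162) and Atp6v1a with nutlin-3a with the mean of all probe sets (adjusted p = 0.0239).

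**Figure D4:**
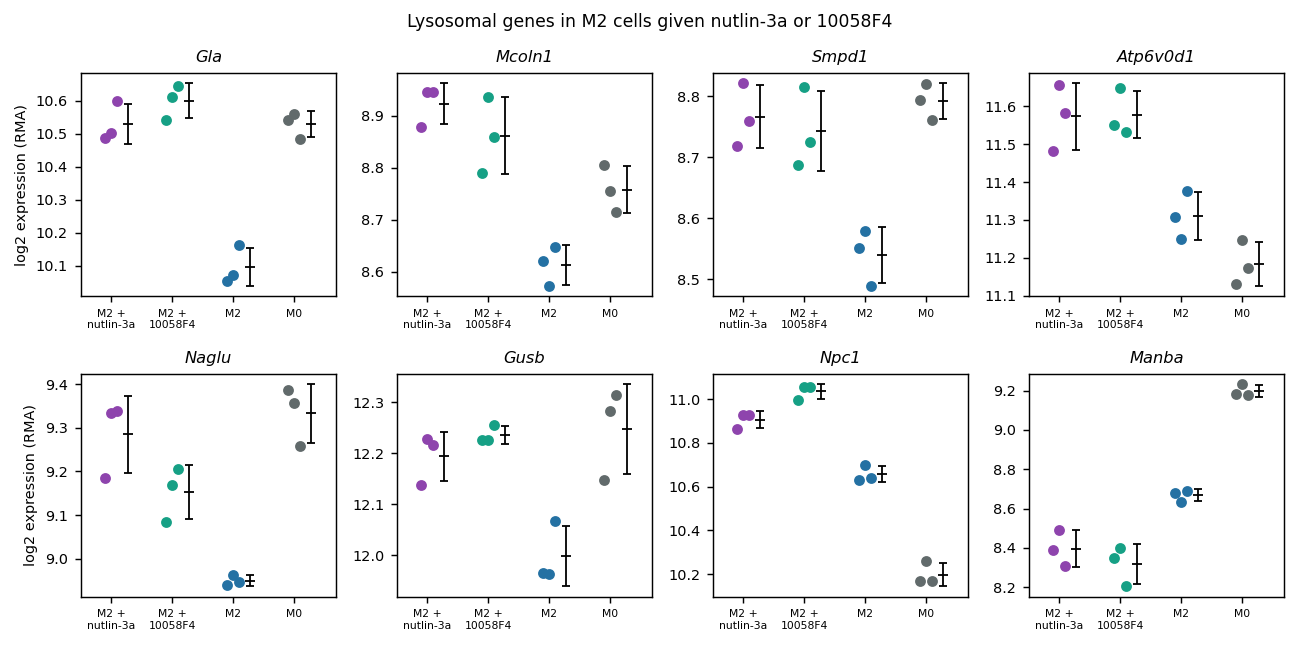
Points are the log2 expression of 8 lysosomal genes on each array of M2 cells given nutlin-3a, M2 cells given 10058F4, M2 and M0 cells, with the mean and SD of 3 arrays beside them; the vertical scales differ and do not start at 0. Gla, Mcoln1, Smpd1 and Atp6v0d1 lie above M2 with both agents, and Manba lies below it.

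No member was called between the agents in limma's test of all 5 groups. Set directly against 10058F4, nutlin-3a had 0 of 46 members higher and 0 lower in limma's test, and 0 at an unadjusted p under 0.05, where 4.24% of all tested genes were higher and 2.72% lower. Differences ran from -0.13 for Npc1 to 0.23 for Sgsh. The 95% intervals of the 45 members other than Galc lay between -0.63 and 0.56, both of them bounds of Arsb, and for 42 of the 45 the interval lay within 0.5 of 0, so larger differences than these are outside the intervals while smaller ones are not settled. These intervals use a spread pooled over all 5 groups. For Arsb the SD was 0.867 in M1, which is not in this comparison, 0.098 with nutlin-3a and 0.0724 with 10058F4. With the mean of all probe sets, Tpp1 was higher with nutlin-3a than with 10058F4 by 0.17 (adjusted p = 0.044).

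Of the 7 members whose promoter holds the CLEAR core, 3 were higher with nutlin-3a and 4 with 10058F4, against 2 and 2 of the 31 other tested members with a promoter, where 9.56% and 10.6% of all tested genes were higher with nutlin-3a and with 10058F4. In M1 against M0, 5 of the 7 were lower and none higher, against 25 lower and 2 higher of the 31, and beside 39.1% lower and 33.6% higher among all tested genes. These counts are small and were not tested.

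By class, the members called with the agents came from 4 of the 6 classes, and no peptidase and no sulfatase was among them. Some alternatives called members of these classes. Ctsc was lower with 10058F4 with the mean of all probe sets (-0.58, adjusted p = 0.00475) and with nutlin-3a without nutlin-3a replicate 1 (adjusted p = 0.043). With array weights, Ctsl (adjusted p = 0.0253) and the sulfatase Arsa (adjusted p = 0.0417) were higher with 10058F4. With a block for the replicate number, Ctsc was lower with nutlin-3a (adjusted p = 0.0209) and with 10058F4 (adjusted p = 0.0449), and Ctsk was higher with 10058F4 (adjusted p = 0.0412). At an unadjusted p under 0.05, 1 of 10 peptidases passed with nutlin-3a and 0 with 10058F4, and 0 of 5 sulfatases with either. The proton pump had 1 subunit higher with nutlin-3a and 2 with 10058F4 out of 7, and none lower. Among all tested genes, 9.56% were higher and 5.85% lower with nutlin-3a, and 10.6% and 10.2% with 10058F4. Counts by class are small and were not tested.

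Other genes of the lysosomal pathway, from lists chosen with earlier results of these data known, also changed with polarization. Of 18 other hydrolases, 3 were higher and 10 lower in M1 than in M0, of 16 other membrane proteins 5 and 10, and of the 11 other pump subunits 1 and 6, beside 33.6% higher and 39.1% lower among all tested genes. Plbd1, a phospholipase B-like protein, was higher by 3.91 ± 0.27, and Clcn7, the chloride and proton exchanger of lysosomes, by 1.57 ± 0.07. Dnase2a, the acid DNase that degrades engulfed DNA, was lower, with a difference of -2.83 ± 0.16, and Atp6v0e2 had one of -1.77 ± 0.48 with 4.93 on M1 replicate 2 beside 7.58 and 7.64 on the others.

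In the sorting list, 1 of 9 genes was higher and 7 lower in M1 than in M0, beside 33.6% and 39.1% of all tested genes. Sort1, or sortilin, was lower, with a difference of -1.99 ± 0.12. M6pr, the small mannose 6-phosphate receptor, was the higher one at 0.59 ± 0.05, while Igf2r, the large one, was lower at -1.24 ± 0.14; both were chosen after their values were seen. Cst7, or cystatin F, an inhibitor of cysteine cathepsins that acts on cathepsin C, read 11.53, 11.78 and 11.61 in M1 and 5.39, 5.24 and 5.43 in M0. It was the most changed inhibitor, at 6.29 ± 0.11 (adjusted p = 1.3e-14), with 2 higher and 2 lower among the 6, beside the same shares.

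Of 16 genes for the lysosomal transcription factors and the nutrient sensing at the lysosome, 1 was higher and 10 lower in M1 than in M0, beside 33.6% and 39.1% of all tested genes. Rragd, a Rag GTPase that brings mTORC1 to lysosomes, was lower, with a difference of -3.21 ± 0.18 and Tfec, a relative of TFEB in macrophages, with one of -2.30 ± 0.13. In M2 against M0, 5 were higher and 5 lower, beside 12.7% and 18.4% of all tested genes, with Tfec higher by 1.70 ± 0.13, Mitf higher by 0.86 ± 0.08 and Fnip2 lower, at -1.33 ± 0.11.

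With nutlin-3a, 6 of these 16 were higher and 1 lower than in M2, beside 9.56% and 5.85% of all tested genes, and with 10058F4, 5 were higher and 2 lower, beside 10.6% and 10.2%. Flcn, or folliculin, which with FNIP1 and FNIP2 controls the phosphorylation of TFEB and TFE3 by mTORC1, read 10.67, 10.48 and 10.36 with nutlin-3a, 10.69, 10.65 and 10.50 with 10058F4 and 9.97, 9.91 and 9.73 in M2. It was higher on all 6 arrays, by 0.63 ± 0.14 (adjusted p = 0.0084) and 0.74 ± 0.14 (adjusted p = 0.00184) for nutlin-3a and 10058F4. Fnip1 was higher by 0.68 and 0.80 and Fnip2 by 0.70 and 0.65, in the same order of agents.

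Tfe3, chosen after its values were seen, read 8.77, 8.81 and 8.78 with nutlin-3a, 8.49, 8.63 and 8.60 with 10058F4 and 9.07, 9.11 and 9.12 in M2. It was lower with both, with differences of -0.31 ± 0.06 with nutlin-3a (adjusted p = 0.00319) and -0.53 ± 0.06 with 10058F4 (adjusted p = 2.6e-05). Gnptab, the enzyme that makes the mannose 6-phosphate tag, read 8.63, 8.57 and 8.70 with nutlin-3a, 9.08, 9.01 and 9.13 with 10058F4 and 8.18, 8.18 and 8.27 in M2. It was higher with both agents, by 0.42 ± 0.10 and 0.86 ± 0.10, and the difference of nutlin-3a minus 10058F4, -0.44 ± 0.10, was itself called (adjusted p = 0.013).

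Some members differed between replicate numbers more than between most groups. The chosen probe set of Galc read 4.34, 8.18 and 4.55 in M1, 5.24, 9.42 and 5.30 with nutlin-3a, 5.20, 9.72 and 5.37 with 10058F4, 5.28, 9.35 and 5.03 in M2 and 4.71, 9.61 and 4.59 in M0. Replicate 2 stood 3.74 to 4.96 log2 units above the mean of replicates 1 and 3 in each of the 5 groups, so the spread within groups (SD of 2.16 to 2.87) left no call in any comparison without a block for the replicate number. With the block Galc was called lower in M1 than in M0 and in M2, although pairs with M1 did not all reach the limit for pairing. A second Galc probe set showed no such step and had a mean of 5.28 ± 0.48 in M1, 6.54 ± 0.16 in M2 and 6.52 ± 0.04 in M0 (SD, n = 3 each).

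Ctsk, the collagen-degrading cathepsin best known from osteoclasts, read 7.45, 7.95 and 7.89 in M1, 7.80, 8.41 and 8.52 in M2 and 8.35, 8.91 and 8.96 in M0. Replicate 1 was the lowest of each of these groups, and M2 overlapped with M0. The M2 minus M0 difference of -0.50 was not called (SE 0.22, adjusted p = 0.107) but was with the replicate number as a block (SE 0.06, adjusted p = 5.4e-05), and Ctsk with 10058F4, at 0.19 over M2, had an adjusted p of 0.617 without the block and 0.0412 with it. M1 minus M0 was -0.98 ± 0.22 (adjusted p = 0.00133).

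In Ctsc, replicate 1 was the highest with each agent and in M2. The readings were 11.37, 11.07 and 10.94 with nutlin-3a and 11.39, 11.13 and 11.03 with 10058F4, against 11.61, 11.32 and 11.31 in M2, so the groups overlapped while every replicate number was lower with the agent. The differences of -0.29 with nutlin-3a and -0.23 with 10058F4 were not called (adjusted p of 0.127 and 0.205), and were with the replicate block (adjusted p of 0.0209 and 0.0449).

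**Figure D5:**
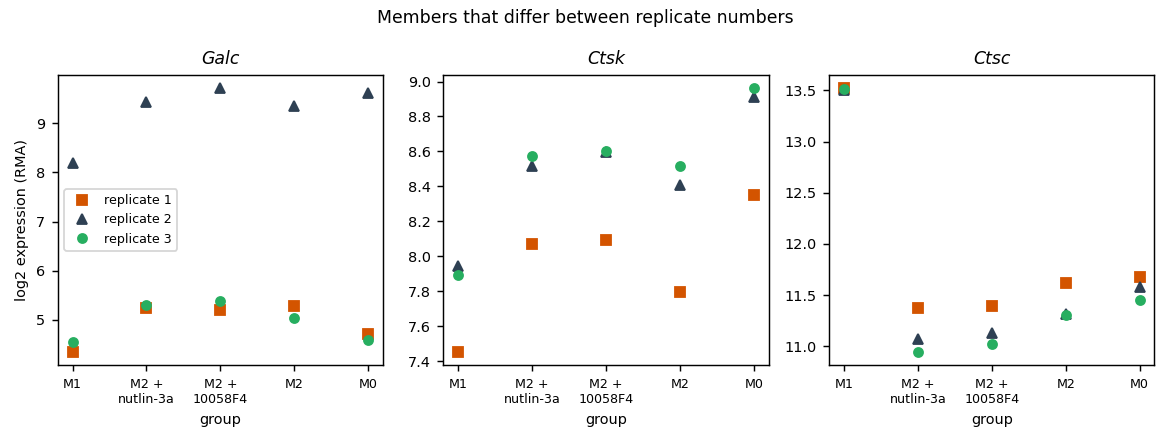
Log2 expression of Galc, Ctsk and Ctsc by group, with a marker for each replicate number. Replicate 2 stands apart in Galc in all 5 groups, replicate 1 is the lowest in Ctsk in all 5, and the M1 arrays of Ctsc lie above 13.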

How the data were processed

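RNA of 15 samples, 3 in each of 5 groups, was read on one-colour arrays. The deposited table holds log2 values from RMA, which the authors ran per the submitters' processing notes (no version given in the sources used here); their log base was read from the values. RMA brings the arrays towards 1 distribution, so a shift of most genes in 1 direction could be hidden. The deposited values do not share 1 distribution exactly. The median of the tested genes was 6.73 to 6.82 on the M1 arrays and 7.05 to 7.15 on the M0 arrays. Sample titles gave the groups and the replicate numbers.

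Of 45101 probe sets, 34945 name 1 gene, 932 name several and 9160 name none. Among the probe sets naming a gene alone, the brightest on average stood for it. Genes were tested where 3 or more arrays read them above their own 40th percentile. The test was limma's lmFit and eBayes, fitted to 5 group means over 15 arrays (10 residual and 3.86 prior degrees of freedom), with Benjamini-Hochberg adjustment over 13703 genes in each of 6 comparisons: M1 against M0 and against M2, M2 against M0, each agent against M2 without it, and the agents against each other. The members and lists were chosen with earlier results of these data known.

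Values on every array are given for the 3 members of each class with the widest range of group means, the member with the narrowest, and members called alike with both agents. Of other lysosomal lists, up to 3 called members per comparison are named, and exceptions are stated. Replicate numbers recur in all groups, and it was checked whether arrays of the same number deviate together from their group means: r was 0.23 to 0.42 between M2 and M0, 0.34 to 0.38 between M2 with and without nutlin-3a, 0.31 to 0.37 between M2 with and without 10058F4, and 0.34 to 0.41 between the agents. All exceed 0.1, so for these comparisons a replicate block, which comes from these correlations and not from the labels, is given wherever it alters a call; pairs with M1 did not all reach 0.1.

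The test was tried on simulated data made like nutlin-3a against M2, with 13703 genes of which 50 were changed at each size. It found 28% of those changed 1.25-fold, 76% at 1.5-fold, 96% at 2-fold and 100% at 4-fold, and 13 of its 163 calls were false. In the data themselves 1310 genes were called higher and 802 lower with nutlin-3a. With fewer changed genes the adjustment is stricter, so the shares found do not carry over directly to the data. Alternatives were other filters, other choices of probe set, quantile normalization repeated, centring on a median, a fit of the 6 arrays compared, array weights, eBayes with a trend and robust, the replicate block and each array left out. The software was R 4.3.3, limma 3.58.1, Python 3.11.15, pandas 2.3.3, scipy 1.17.1 and matplotlib 3.10.9.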

Additional observations from a re-analysis of the deposited data

How the results depend on the processing

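Of the calls given above, those made under every alternative that could be run for the member (probe sets without a suffix covered 38 of the 46) were 3 of 3 higher and 25 of 37 lower in M1 against M0, 5 of 5 higher and 11 of 18 lower in M2 against M0, 4 of 5 higher and 25 of 35 lower in M1 against M2, 3 of 5 higher and 0 of 1 lower with nutlin-3a, and 2 of 7 higher and 1 of 1 lower with 10058F4. Smaller moves aside (such as 13 to 22 members lower in M2 against M0, and up to 7 higher with nutlin-3a), the alternatives that moved a count by over 1.5 times were these, and the cause was not tested. With the mean of all probe sets, 6 members were higher in M1 than in M0, 2 lower with 10058F4 than in M2, and 1 higher with nutlin-3a than with 10058F4. With probe sets without a suffix, 2 were lower with 10058F4. With each array centred on the median of its tested genes, an alternative chosen after seeing the data, 8 were higher in M1 than in M0, 8 higher in M1 than in M2 and 11 lower in M2 than in M0; signs turned for Atp6v0d1 (0.206), Atp6v1h (0.0617), Ctsb (0.054), Ctss (0.0796), Lamp2 (0.202) and Psap (0.0232) in M1 against M0, and for Ctss (0.0332), Galns (0.17), Psap (0.0191) and Smpd1 (0.00289) in M1 against M2. With arrays centred on the median of all probe sets, 7 were higher and 0 lower with nutlin-3a. With quantile normalization repeated, 3 were higher with nutlin-3a. With array weights, 9 were higher and 2 lower with nutlin-3a, and 12 higher and 2 lower with 10058F4. With the replicate block, 2 were lower with nutlin-3a and 2 with 10058F4; beyond the calls named above it changed those of Galc and Ctsk in comparisons with M1, whose numbers did not pair by the limit (Galc against M0 at -0.62, adjusted p = 0.0112, and against M2 at -0.86, adjusted p = 0.00151; Ctsk against M2 at -0.48, adjusted p = 1.8e-05).

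Leaving out 1 array at a time gave 11 to 15 members lower in M2 than in M0, 3 to 5 higher and 0 to 1 lower with nutlin-3a than in M2, and 2 to 5 higher with 10058F4. The lowest of these came without M0 replicate 3 for M2 against M0, without M2 replicate 1 or 2 or nutlin-3a replicate 2 or 3 for those higher with nutlin-3a, without M2 replicate 1 or 3 or nutlin-3a replicate 3 for the 1 lower with it, and without 10058F4 replicate 2 for 10058F4, where the count was 3 without M2 replicate 1 and 4 without M2 replicate 2 or 10058F4 replicate 1 or 3. Having 3 arrays per group limits most the differences under 1.5-fold, which include all those of the 46 members with the agents; 5 members (Atp6v0a1, Atp6v1b2, Gm2a, Ids and Npc2) had probe sets called in both directions in M1 against M0.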

Other observations

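The step of Galc by replicate number was the widest of all 13703 tested genes: its means over the 5 groups differed by 4.31 between replicate numbers, against a median of 0.11 over all tested genes and 0.08 over the members. Trim12a came next at 3.18, then Trim34a at 3.01, Trim30d at 2.76 and Lrmda at 2.29. In Trim12a, replicate 3 was the lowest of each group, with 3.26 in M1 and 3.10 in M0. In Lrmda, replicate 3 was the highest of each group, with 8.55 in M1 and 8.49 in M0. These genes were chosen after their values were seen, and no cause was tested.

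The genes whose levels followed Atp6v0d2 most closely over the 15 arrays were Snx5, Hfe, Eef2, C1qbp and Ncl, with Pearson's r of 0.998 to 0.994. For Ctss they were Asah1, which is itself one of the lysosomal genes, 1110038B12Rik, Smpdl3a, Mcoln3 and Cox7a2l, with r of 0.981 to 0.974. For Ctsk they were Cpe, S100a10, Arsk, Chtf18 and Rassf8, with r of 0.963 to 0.909. The arrays fall into 5 groups with M1 apart and share replicate numbers, so these values describe likeness over these arrays alone.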
